A study of Mus musculus with 3 samples.

Results

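The unfolded protein response and ER folding module comprised 33 of the 32285 genes counted in the deposited matrices. Its members were chosen by name and known function, from the sensors of stress in the endoplasmic reticulum (ER) to the chaperones, folding enzymes, degradation factors and translocation machinery that the sensors control. Their raw counts were read by library and by deposited cluster, with cluster 5 set against each other cluster.

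The libraries came from sorted pre-cDCs, cDC1s and cDC2s of MCA205 LA-OVA tumours, a transplantable fibrosarcoma expressing ovalbumin, taken 5 days after injection. The hosts were male and female mice on a C57BL/6J background, aged 6 to 20 weeks. There was 1 library per genotype, each a pool of mice: 37 WT, 31 sGSN-/- and 27 sGSN-/-Clec9a-/-. The mutants lack secreted gelsolin, alone or together with DNGR-1, the receptor for dead cells that *Clec9a* encodes.

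Proteins that enter the secretory pathway fold in the ER, and a surplus of unfolded protein there activates IRE1, PERK and ATF6, which raise folding capacity, slow translation and speed degradation. The IRE1 and XBP1 branch is known to be active in cDC1s and to matter for their upkeep and for cross-presentation. Several folding proteins, calreticulin and *Pdia3* among them, also serve the loading of peptide onto MHC class I.

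The matrices held 12763, 8173 and 9273 barcodes in the WT, sGSN-/- and sGSN-/-Clec9a-/- libraries. The deposited cDC1 table assigned 2316, 1712 and 1778 of them to clusters, with a median of 14092, 14150 and 12231 unique molecular identifiers (UMIs) per cell. Cluster 5 held 195, 158 and 157 of these cells. The deletion of *Clec9a* could be checked by its counts in cDC1s, with 5502 UMIs in WT, 3970 in sGSN-/- and 2 in sGSN-/-Clec9a-/-, whereas *Xcr1*, a chemokine receptor of cDC1s, stood at 205, 223 and 233 CPM (counts scaled to a common library total). The loss of secreted gelsolin could not be checked in these counts. Between 2 and 3 cDC1 barcodes were shared by any pair of libraries.

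The members took up a larger part of the transcripts of a cluster 5 cell than of other cDC1s. Their median share of the UMIs of a cell was 1.59% in WT, 1.68% in sGSN-/- and 1.44% in sGSN-/-Clec9a-/- cluster 5 cells, against 0.527% in all other cDC1s. Among the other clusters tested the median ran from 0.331% in cluster 8 to 0.627% in cluster 9. Cluster 11, whose 60 cells had a median of only 2348 UMIs, had a share of 1.66% and was not tested. Of the 510 cluster 5 cells, 393 (77.1%) lay above the 95th percentile of the other cDC1s, so the remaining cluster 5 cells overlapped them.

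**Figure D1:**
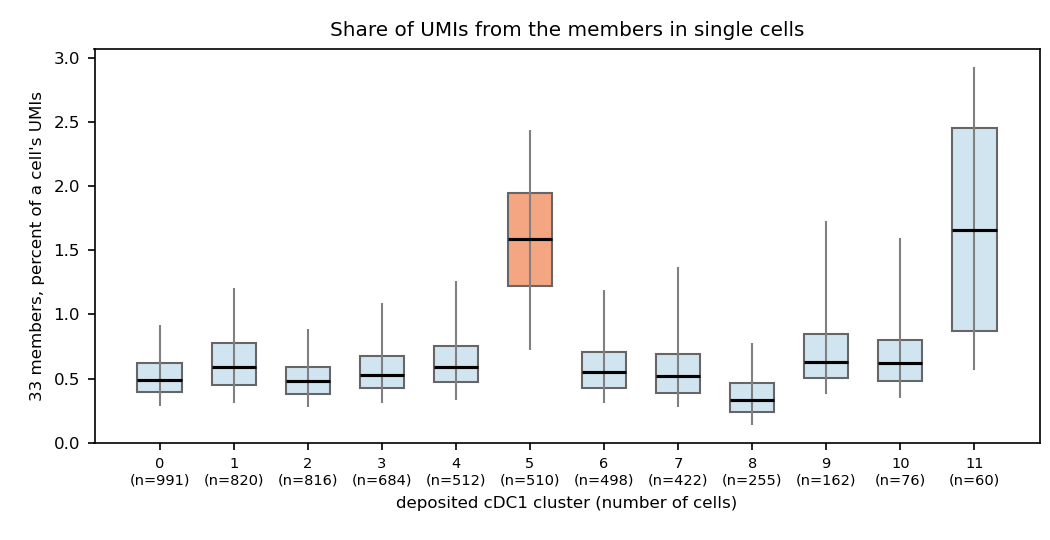
Share of the UMIs of each cDC1 that came from the 33 module members, by deposited cluster: median, quartiles and 5th to 95th percentile.

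Summed by library, 30 of the 33 members were higher in cluster 5 than in all other cDC1s and 0 were lower, by the quasi-likelihood test of edgeR with Benjamini-Hochberg adjusted p under 0.05, where 11.8% of the 10817 genes tested were higher. The median log2 fold change of the members was 1.32, against -0.01 over all genes tested. DESeq2 also called 30 higher and 0 lower, and at an unadjusted p under 0.05 edgeR counted 32 and 0. The deposited clusters were called by the authors on the same counts, so these p-values describe agreement between libraries and not whether the cluster exists. The paper names *Creld2*, *Hspa5* and *Pdia6* among the transcripts enriched in cluster 5 of these data. Their higher level there was thus known beforehand.

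The sensors differed less. They are *Ern1*, which encodes IRE1, the kinase and ribonuclease that splices *Xbp1* messenger RNA; *Atf6*, a membrane-bound transcription factor cleaved in the Golgi; and *Eif2ak3*, which encodes PERK, the kinase that phosphorylates eIF2α. *Ern1* stood at 7.22, 7.23 and 4.68 CPM in cluster 5 of WT, sGSN-/- and sGSN-/-Clec9a-/-, against 7.22, 7.78 and 6.65 CPM in the other cDC1s, and the groups overlapped. *Atf6* gave 85.5, 81.7 and 79.1 CPM against 75.7, 69.4 and 66.4 CPM, and *Eif2ak3* 12.6, 14.5 and 10.4 CPM against 9.36, 8.86 and 9.26 CPM. Both were above the other cDC1s in 3 of 3 libraries, yet 0 of the 3 sensors were called by edgeR or by DESeq2, with 2 higher at an unadjusted p under 0.05. The log2 differences were 0.23 ± 0.08 (standard error) for *Atf6* and 0.46 ± 0.16 for *Eif2ak3* in 3 of 3 libraries, with adjusted p-values of 0.0520 and 0.0513 in the quasi-likelihood test of edgeR with Benjamini-Hochberg. The same test called *Atf6* with the library as block (log2 fold change 0.22, 3 of 3 libraries, adjusted p 0.0250) and *Eif2ak3* with doublets left out (0.49, 3 of 3 libraries, adjusted p 0.0401), so these 2 lay near the threshold. Gene counts do not separate spliced from unspliced *Xbp1* and say nothing of phosphorylation or cleavage, so the activity of the sensors was not measured.

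All 4 members downstream of the sensors were higher in cluster 5, by a median log2 fold change of 0.87. *Xbp1*, the transcription factor of the IRE1 branch, stood at 210.3, 213 and 182 CPM in cluster 5 of WT, sGSN-/- and sGSN-/-Clec9a-/-, against 141, 133 and 124 CPM elsewhere. *Ddit3*, which encodes CHOP, the factor tied to prolonged stress, gave 102, 85.5 and 99.4 CPM against 41.9, 43.8 and 45.7 CPM. For *Atf4*, translated when eIF2α is phosphorylated, the values were 299, 292 and 328 CPM against 250.0, 234 and 242 CPM. None of these groups overlapped, and the log2 fold changes were 0.61 for *Xbp1*, 1.13 for *Ddit3* and 0.35 for *Atf4*. The *Atf4* call was lost without the WT library, where the log2 fold change was 0.39 at an adjusted p of 0.0517 in the quasi-likelihood test of edgeR with Benjamini-Hochberg, in 2 of 2 libraries. *Trib3*, a pseudokinase induced by ATF4 and CHOP, was enriched in cluster 5, at 4.33, 5.96 and 4.68 CPM against 0.234, 0.377 and 0.205 CPM. Its log2 fold change of 4.16 ± 0.40 rested on few counts, 12, 14 and 9 UMIs in cluster 5 out of 19, 22 and 13 in all cDC1s.

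The ER chaperones of the Hsp70 and Hsp90 families and their partners were the group with the largest shift, with 9 of 9 higher at a median log2 fold change of 1.74. *Hspa5* (ENSMUSG00000026864, chr2:34771970-34777547, plus strand, GRCm38) encodes BiP, the Hsp70 that also holds the sensors inactive. It stood at 2799.8, 2832 and 2367 CPM in cluster 5 of WT, sGSN-/- and sGSN-/-Clec9a-/-, against 847, 908 and 793 CPM in other cDC1s. The groups did not overlap, and the level in cluster 5 was 3.15-fold higher (log2 fold change 1.66 ± 0.07, 3 of 3 libraries, adjusted p 8.78e-09 in the quasi-likelihood test of edgeR with Benjamini-Hochberg). *Creld2*, a secreted ER protein induced by stress, gave 299.8, 322 and 259 CPM against 38.7, 40.4 and 39.0 CPM. This was a 7.48-fold difference without overlap (log2 fold change 2.90 ± 0.08, 3 of 3 libraries, adjusted p 2.33e-10 in the quasi-likelihood test of edgeR with Benjamini-Hochberg).

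*Manf*, another secreted stress protein, stood at 938, 1063 and 910.3 CPM in cluster 5 of WT, sGSN-/- and sGSN-/-Clec9a-/-, against 185, 204 and 198 CPM. *Sdf2l1*, a partner of BiP, gave 851, 876 and 847 CPM against 169, 185 and 175 CPM, and *Hyou1*, the nucleotide exchange factor of BiP, 146, 154 and 133 CPM against 35.8, 34.2 and 34.6 CPM. Cluster 5 was high in every library for all 3 genes, with log2 fold changes of 2.32, 2.29 and 2.05. The ER Hsp90 *Hsp90b1* followed at 1.74, and the J proteins that feed clients to BiP at 1.64 for *Dnajb11*, 1.61 for *Dnajc3* and 1.08 for *Dnajb9*.

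Disulfide isomerases, which form and reshuffle the bonds of folding proteins, were higher in 4 of 4 cases with a median log2 fold change of 1.57. *Pdia4* stood at 225, 255 and 181 CPM in cluster 5 of WT, sGSN-/- and sGSN-/-Clec9a-/-, against 52.4, 51.3 and 46.7 CPM, a log2 fold change of 2.14 without overlap. *Pdia6* followed at 1.81, *Pdia3*, which works with the lectin chaperones, at 1.32 and *P4hb* at 0.83. The lectin chaperones that hold glycoproteins until they are folded, *Calr* and *Canx*, were higher too. *Calr* gave 1059, 1193 and 1154 CPM against 407, 454 and 456 CPM, a log2 fold change of 1.38 without overlap, and *Canx* had a log2 fold change of 0.83.

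The 6 members of ER-associated degradation, which returns misfolded protein to the cytosol, were all higher, at a median log2 fold change of 1.03. *Herpud1*, a membrane adaptor of the degradation complex, stood at 484, 463 and 471 CPM in cluster 5 of WT, sGSN-/- and sGSN-/-Clec9a-/-, against 158, 181 and 159.9 CPM. The groups did not overlap and the log2 fold change was 1.51. The ubiquitin ligase *Syvn1* followed at 1.46, ahead of its partner *Sel1l*, then the mannose-trimming *Edem1* at 0.86, and the membrane proteins *Derl1* and *Derl2* at 0.78 and 0.77.

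The 5 members that bring new proteins into the ER or modify them on entry were higher as well, at a median log2 fold change of 1.28. *Spcs2*, a subunit of signal peptidase, stood at 519, 587 and 490.0 CPM in cluster 5 of WT, sGSN-/- and sGSN-/-Clec9a-/-, against 185, 205 and 178 CPM, without overlap. Its log2 fold change of 1.49 was followed by 1.32 for *Ssr2*, of the translocon-associated complex, 1.28 for *Ostc*, of the oligosaccharyltransferase, 0.93 for the signal peptidase *Sec11c* and 0.87 for the translocon subunit *Sec61b*. Cluster 5 had the highest mean level of 28 of the 33 members among the clusters tested. Across the module, 32 of 33 members had no overlap between cluster 5 and the other cDC1s, *Ern1* being the one that did. Neither count was set against all genes, so both are description only.

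**Figure D2:**
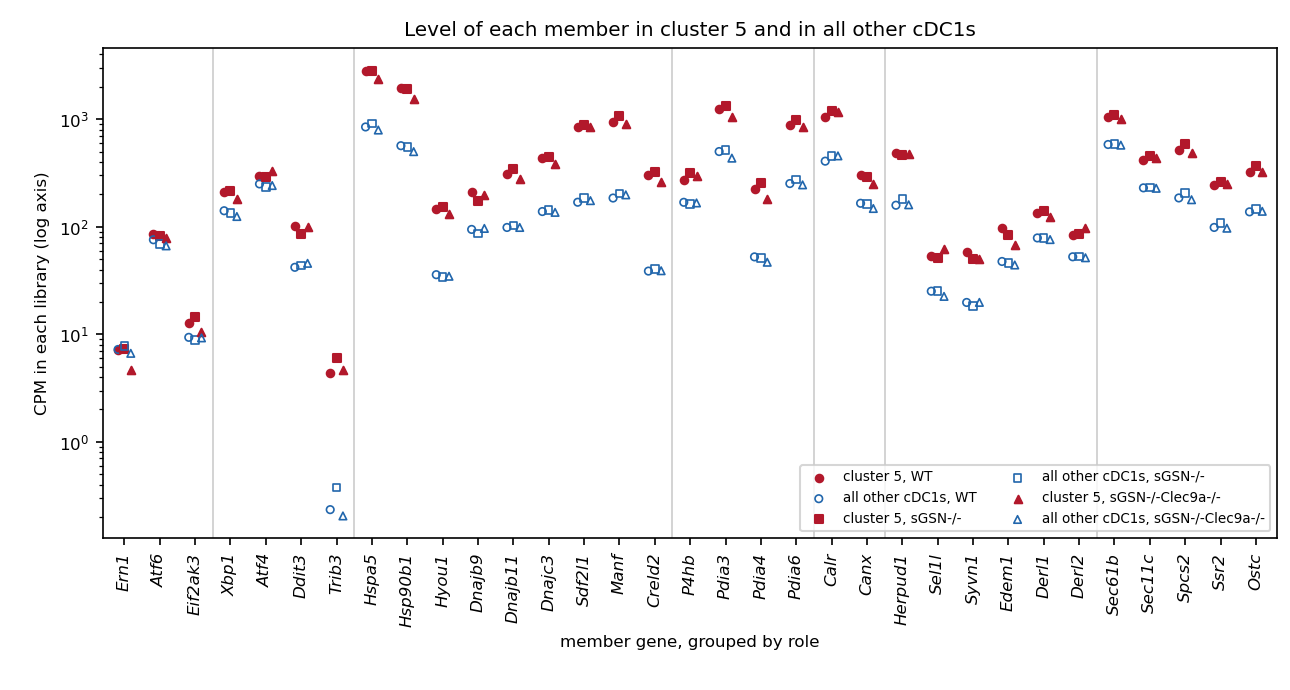
CPM of module members in cluster 5 and in all other cDC1s, each library shown.

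Set against each other cluster in turn, 32 members could be tested, as the low counts of *Trib3* did not pass the filter. Against cluster 0, 30 of 32 were higher, where 10.5% of the 9606 genes tested were, and against cluster 1 also 30, where 8.26% were. Against cluster 2, 29 members were higher beside 14.0% of all genes, and against cluster 3, 27 beside 12.5%. Against cluster 4, 30 were higher beside 9.88%. None of these 5 contrasts had a member lower by edgeR at an adjusted or unadjusted p under 0.05, or by DESeq2, which counted 0. The difference thus held against each of the large clusters and was not carried by 1 of them. Clusters 9 and 10 came nearest to cluster 5, with 24 members higher against cluster 9, where 10.9% of all genes were, and 25 against cluster 10, where 5.47% were. Both had 0 members lower by edgeR, at an unadjusted p and by DESeq2.

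A few members were lower in cluster 5 than in clusters 6, 7 and 8. Against cluster 6, 28 were higher and 2 lower, where 25.2% and 26.1% of all genes were, and scaling by library size alone gave 26 and 2. Against cluster 7 the counts were 30 higher and 1 lower, where 9.89% and 13.9% of all genes were, and 30 and 0 by library size alone. Against cluster 8, 26 were higher and 1 lower, where 23.0% and 25.7% of all genes were, and 27 and 0 by library size alone. Library size alone moved the median log2 fold change of all genes by 0.12 against cluster 0, -0.19 against cluster 6, 0.12 against cluster 7 and 0.25 against cluster 8. The medians of the members lay well beyond these shifts, from 0.99 against cluster 9 to 1.55 against cluster 8.

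The chaperones *Hspa5*, *Creld2*, *Manf* and *Sdf2l1* were higher in cluster 5 than in every other cluster tested, 10 of 10. *Creld2* had log2 fold changes from 2.04 against cluster 9 to 3.43 against cluster 6, and *Hspa5* from 0.74 against cluster 9 to 1.91 against cluster 2. Cluster 9 was the second highest of the clusters tested for *Hspa5*, at 1465, 1662 and 1529 CPM in WT, sGSN-/- and sGSN-/-Clec9a-/-, which did not reach the range of cluster 5. All 4 disulfide isomerases, *Calr* and all 5 entry members were likewise higher against each of the 10. *Hyou1* was too, although its call against cluster 10 was lost without the sGSN-/-Clec9a-/- library (0.81). *Canx* against cluster 6 was lost without the WT library (0.29). The J protein *Dnajb9* was the only one of the chaperones not called against every cluster, with log2 differences of 0.28 against cluster 3, which was called with the library as block (0.28), and 0.12 against cluster 9.

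Part of the degradation members, *Herpud1*, *Sel1l* and *Edem1*, parted from the chaperones in cluster 8. *Herpud1* stood there at 395, 465 and 506 CPM in WT, sGSN-/- and sGSN-/-Clec9a-/-, which overlapped cluster 5, and *Sel1l* at 56.2, 56.7 and 54.3 CPM. *Hspa5*, at 626, 563 and 704 CPM, and *Creld2*, at 32.0, 25.2 and 23.3 CPM, were low in that cluster in every library. Against cluster 8 the median log2 fold change was 0.13 for degradation and 2.25 for the chaperones. *Syvn1* (1.58), *Derl1* (1.02) and *Derl2* (0.44) were higher in cluster 5, as the chaperones were. *Herpud1* and *Sel1l* differed by -0.19 and -0.26 without a call, whereas *Edem1* was lower at -0.43. That call of *Edem1* was lost without the WT library (-0.42), without the sGSN-/- library (-0.35) and with library size alone (-0.18). *Derl2* against cluster 8 was lost without WT (0.42). Against cluster 9, *Herpud1* at 0.05 and *Sel1l* at 0.44 were not called, and without the sGSN-/- library *Sel1l* was, at 0.71. Without WT the calls of *Edem1* (0.54) and *Derl1* (0.43) against cluster 9 and of *Edem1* against cluster 6 (0.36) were lost.

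The sensors and *Atf4* followed other patterns over the clusters. *Atf6* was highest in cluster 6, at 140.4, 162 and 153 CPM in WT, sGSN-/- and sGSN-/-Clec9a-/-, and lower in cluster 5 than there by a log2 fold change of -0.68, but higher in cluster 5 than in cluster 8 by 1.32. *Atf4* was also highest in cluster 6, and its log2 fold change of -0.22 against that cluster was lost without WT (-0.22). *Ern1* was lower than in cluster 7 by -0.77, a call lost without WT (-0.68), without sGSN-/- (-0.81), without sGSN-/-Clec9a-/- (-0.76) and with library size alone (-0.65). *Eif2ak3* was higher than in cluster 0 by 0.86, lost without WT (0.81) or sGSN-/- (0.67), and than in cluster 7 by 0.98, lost without sGSN-/- (0.61). Several of these calls were thus lost with 2 libraries at little change in value, as in *Ern1* and *Atf4*.

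Several smaller values of *Xbp1*, *Ddit3*, *Atf4* and *Atf6* were also not called with 2 libraries. Without the WT library the calls lost were *Atf4* against clusters 0 (0.28), 4 (0.33) and 10 (0.37), *Ddit3* against clusters 3 (0.50), 4 (0.52) and 8 (0.43), and *Xbp1* against clusters 4 (0.45), 6 (0.17) and 9 (0.48). Without sGSN-/- they were *Atf4* against clusters 0 (0.25) and 4 (0.32), *Atf6* against cluster 4 (0.40) and *Xbp1* against clusters 3 (0.35), 6 (0.24) and 9 (0.25). Without sGSN-/-Clec9a-/- they were *Atf4* against clusters 4 (0.17) and 10 (0.32). *Ddit3* against cluster 9, at 0.44, was called only with the library as block (0.43). Among the Hsp70 and Hsp90 chaperones and their partners, only 1 such loss was seen, that of *Hyou1* against cluster 10.

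**Figure D3:**
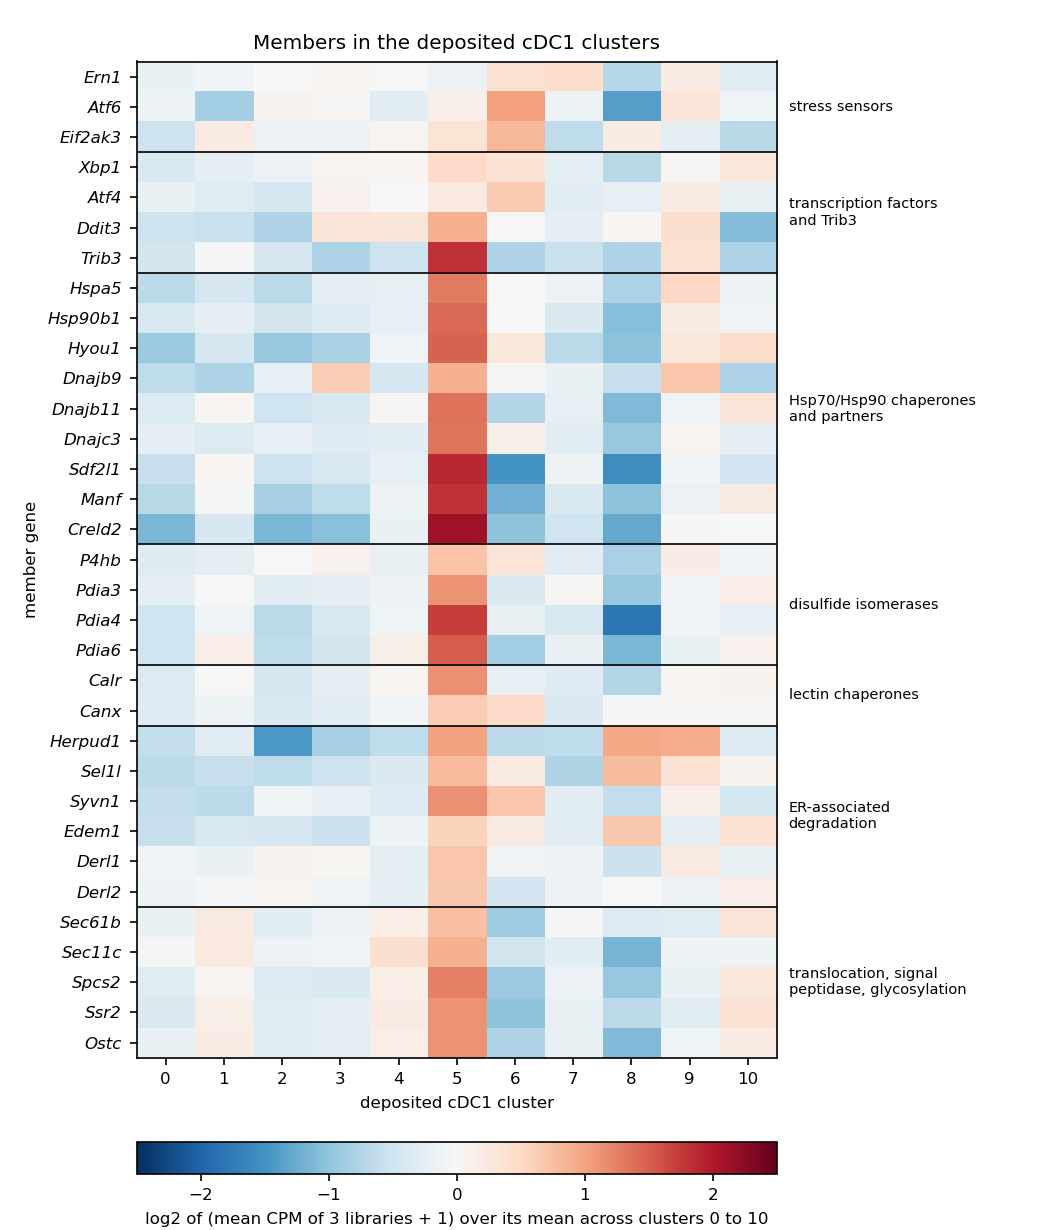
Mean CPM of each module member in the deposited cDC1 clusters 0 to 10, relative to its mean over them (log2).

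The members followed *Hspa5* more closely with cluster 5 included than without it. Over the 33 sums of library and cluster, the median correlation of log CPM between *Hspa5* and the other members was 0.71, and without cluster 5 it was 0.42 over 30 sums, with 12 of 32 members at 0.5 or above. The sums share libraries and are described without a test. The closest member was *Hsp90b1*, at 0.93, and in the sums without cluster 5 *Derl2* (-0.26), *Sec61b* (-0.12), *Eif2ak3* (-0.09) and *Edem1* (-0.03) fell below 0. Over the 4696 genes of at least 20 CPM the median correlation with *Hspa5*, with cluster 5 included, was 0.13. Of the 50 genes nearest to *Hspa5*, 14 were members.

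The 10 genes outside the module nearest to *Hspa5* had correlations from 0.80 to 0.88. The nearest was *Hdlbp*, an RNA-binding protein of ER-bound messages, at 0.88. It was followed by *Srp72*, of the signal recognition particle, at 0.84, the Golgi SNARE *Stx5a* at 0.83, and the vesicle tether *Uso1*, the ER selenoprotein *Selenos* and the ribosome receptor *Rrbp1* at 0.82. *Lysmd3* stood at 0.81, and *Trabd*, the translocon-associated *Ssr3* and the amino acid transporter *Slc7a5* at 0.80. These genes were picked for their correlation, so their fold changes carry no test of their own.

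Lists of related genes outside the module showed how far the difference extended. Over all genes, 11.8% were higher in cluster 5 than in all other cDC1s and 10.3% lower. Of genes for transport from ER to Golgi, 22 of 23 tested were higher in cluster 5 than in all other cDC1s and 0 lower, with a median log2 fold change of 0.87 beside -0.01 for all genes, and with 23 and 0 at an unadjusted p under 0.05 in edgeR and 21 and 0 by DESeq2. Further translocon, signal peptidase and oligosaccharyltransferase genes gave 24 of 25 higher and 0 lower, median 0.86, with 25 and 0 unadjusted and 24 and 0 by DESeq2. *Rpn1*, a subunit of the oligosaccharyltransferase, stood at 283, 282 and 237 CPM in WT, sGSN-/- and sGSN-/-Clec9a-/- against 115, 114 and 109 CPM, and the cargo receptor *Surf4* at 168, 175 and 166 CPM against 77.3, 76.0 and 76.6 CPM. Cluster 5 was high for both in every library, so genes of entry and export were higher there beside those of folding.

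Further folding enzymes and degradation factors were higher in part, and differences between the lists were not tested. Over all genes, 11.8% were higher in cluster 5 and 10.3% lower. Of the folding enzymes 14 of 23 were higher and 0 lower, median 0.42, with 19 and 0 at an unadjusted p under 0.05 in edgeR and 14 and 0 by DESeq2. Of the degradation factors 8 of 16 were higher and 0 lower, median 0.40, with 8 and 0 unadjusted and 7 and 0 by DESeq2. *Derl3*, the stress-induced relative of *Derl1* and *Derl2*, stood out in that list, at 15.5, 19.6 and 20.3 CPM in cluster 5 of WT, sGSN-/- and sGSN-/-Clec9a-/- against 1.30, 0.754 and 1.59 CPM, a log2 fold change of 3.91 without overlap.

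Targets of ATF4 and the integrated stress response gave 16 of 25 higher and 1 lower, median 0.85, where 11.8% and 10.3% of all genes were. The lower one was *Ppp1r15a*, the phosphatase subunit that resets eIF2α. *Phgdh*, the first enzyme of serine synthesis, stood at 41.5, 48.1 and 52.0 CPM in cluster 5 of WT, sGSN-/- and sGSN-/-Clec9a-/-, against 3.81, 5.52 and 4.40 CPM, a log2 fold change of 3.37 without overlap. The amino acid transporter *Slc7a5* had a log2 fold change of 1.64 and the seryl-tRNA synthetase *Sars* of 1.09. Many ATF4 targets were thus higher beside the folding genes, and the route to them was not tested.

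Transcripts known to be cleaved by IRE1 did not move as a group, with 1 of 5 higher and 2 lower and a median log2 fold change of -0.06. Over all genes, 11.8% were higher and 10.3% lower. The integrin subunit *Itgb2* was lower at 146, 131 and 140.4 CPM in cluster 5 of WT, sGSN-/- and sGSN-/-Clec9a-/- against 228, 214 and 218 CPM (log2 fold change -0.65). *Tapbp*, which encodes tapasin of the peptide-loading complex, was lower by -0.40, a call lost without the WT library (-0.36), and *Ergic3* was higher by 0.26, a call lost by DESeq2 and without WT (0.26), sGSN-/- (0.27) or sGSN-/-Clec9a-/- (0.26). DESeq2 thus counted 0 higher and 2 lower in this list, against 1 and 2 in edgeR at an unadjusted p under 0.05. Cleavage itself was not measured.

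Other stress lists did not share the direction. Of cytosolic heat shock genes, 0 of 11 were higher and 1, *Hspa8*, was lower, where 10.3% of all genes were lower, median -0.33, with 0 and 2 at an unadjusted p under 0.05 in edgeR and 0 and 1 by DESeq2. Of immediate early genes, 0 of 12 were higher and 6 lower, median -0.20, with 0 and 7 unadjusted and 0 and 6 by DESeq2. Neither list had a gene higher in cluster 5, unlike the lists of ER genes.

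Cluster 5 also held transcripts of dividing cells, although the authors had excluded proliferating cells before clustering. All 6 proliferation markers had UMIs in cluster 5, with none at 0, and summed to 90.6, 89.8 and 63.5 CPM in WT, sGSN-/- and sGSN-/-Clec9a-/-, where *Ccnb2* was the most abundant at 40.5 CPM. In the other cDC1s they summed to 24.7, 28.1 and 25.6 CPM, with *Mki67* the most abundant and none at 0, and 3 of the 6 were higher in cluster 5. Cells with *Mki67* made up 11.6% of cluster 5, 8.02% of the other cDC1s and 33.3% of cluster 9. Markers of activated cDCs moved the other way, with 6 of 6 lower in cluster 5, which summed to 6.49, 10.2 and 8.32 CPM against 249.8, 343 and 107 CPM, with *Ccl22* and *Ccr7* the most abundant and none at 0. Markers of cDC1s summed to 1626, 1736 and 1767 CPM against 2170.0, 2084 and 2151 CPM, led by *Naaa*, with 3 of 6 lower and none at 0. Markers of cDC2s (3 of 5 tested), pre-cDCs (2 of 6) and plasmacytoid cells (2 of 4) were lower in part, and 1 of 2 tested markers of B or plasma cells was higher, in a list led by *Ighm* that summed to 125, 109.7 and 144 CPM against 102, 99.1 and 103 CPM. Of these lists, only those of proliferation and of B or plasma cells had markers higher in cluster 5, as the module did. The other lists named here had markers lower and none higher. Beside these counts, 11.8% of all genes tested were higher in cluster 5 and 10.3% lower. The other cDC1s included clusters of activated cells, and the part of those clusters in the 6 of 6 was not tested. The part of the marker lists in the difference of the module was not tested either.

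When the cDC1s were clustered again without the members and the related lists, cluster 5 did not come back as 1 group. A part of it, 122 cells, made up most of a group of 134. Over the 1948 remaining variable genes, its 510 cells spread over 9 of 10 groups, 4 of which held at least 10% of them, and the largest holder took 143 (28.0%) in a group of 1128 that came mostly from cluster 1. With all 1988 variable genes, 413 of the cells (81.0%) fell in 1 group of 464. Cluster 5 was the one most dispersed by the removal, and cluster 3 also fell from 80.7% to 45.0% in 1 group. Removal of other genes was not tried.

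Inside those groups the cluster 5 cells still stood apart. In the group of 1128, the members summed to 17232, 17680.1 and 15703 CPM in cluster 5 cells of WT, sGSN-/- and sGSN-/-Clec9a-/-, against 6548, 6607 and 6353 CPM in the rest. In a group of 1188 made mostly of cluster 2, the 102 cluster 5 cells gave 17015, 18227 and 15167 CPM against 5389, 5616 and 5002 CPM. The same order held in the next 2 groups by size, in 3 of 3 libraries each. Since the assignment to cluster 5 rests in part on these genes, the contrast is a description and was not tested. In these 4 groups the cluster 5 cells thus summed to at least 15167 CPM in every library, which those of a small mitotic group did not reach.

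**Figure D4:**
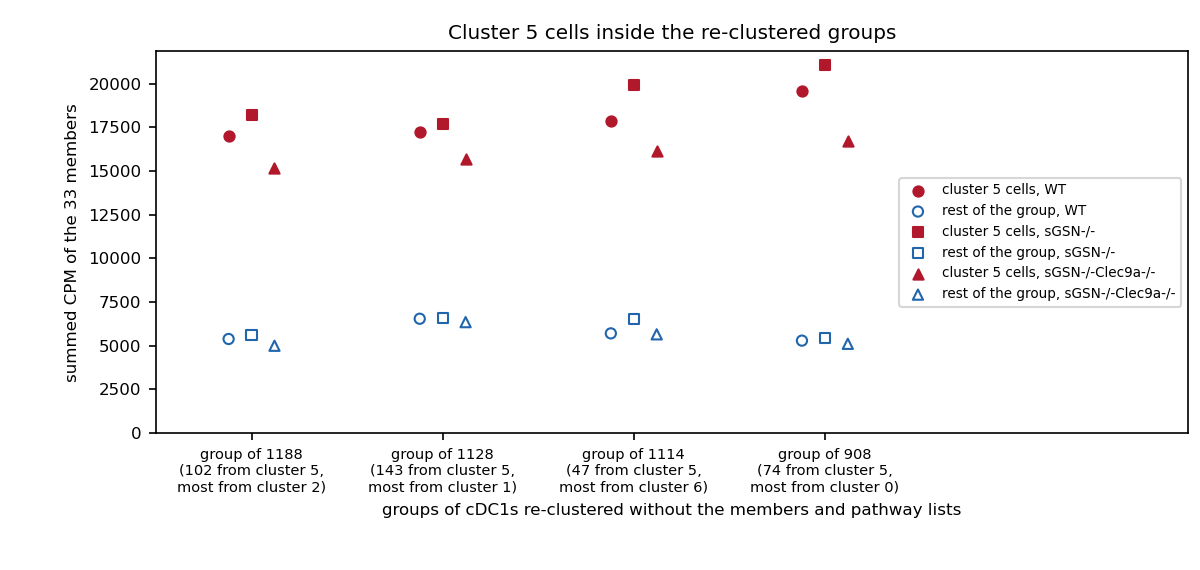
Summed CPM of the 33 members in cluster 5 cells and in the remaining cells of the 4 largest groups found without the members and related lists, each library on its own.

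The group that held most cluster 5 cells was itself set against the other cDC1s. It was picked for those cells, whose assignment rests in part on the members. Higher members were thus partly built in, and the calls describe the group without testing it. In its cells from other clusters, *Hspa5* stood at 811, 898 and 759 CPM in WT, sGSN-/- and sGSN-/-Clec9a-/-. Of 32 members, 17 were higher and 2 lower, where 19.7% and 21.1% of the 10897 genes tested were, with a median log2 fold change of 0.30. *Manf* stood at 377, 422 and 375 CPM in WT, sGSN-/- and sGSN-/-Clec9a-/-, against 219.7, 252 and 237 CPM, a log2 fold change of 0.77 without overlap, and *Pdia6* and *Creld2* followed at 0.72 and 0.73. *Hspa5*, at 1062, 1245 and 933 CPM against 1001, 1059.6 and 934 CPM, overlapped and was not called (0.15), except with the library as block (0.15). *Atf6* was lower by -0.77 and *Dnajb9* by -0.44. The call of *Derl2* was lost without WT (0.21), sGSN-/- (0.27) or sGSN-/-Clec9a-/- (0.21), and that of *Pdia3* without WT (0.30).

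A small group of 134 cells was made up almost wholly of cluster 5, with 122 cells (91.0%), or 23.9% of that cluster. It was led by genes of mitosis, among them *Ccnb2*, *Ube2c*, *Birc5* and *Stmn1*, and 29.5% of its cluster 5 cells had *Mki67*, against 5.93% of the other 388. Outside this group *Mki67* stood at 7.86, 6.10 and 5.10 CPM in cluster 5 of WT, sGSN-/- and sGSN-/-Clec9a-/-, below the other cDC1s in 3 of 3 libraries, whereas *Ccnb2* stood at 8.36, 3.88 and 10.2 CPM, above the 2.21, 1.46 and 1.33 CPM of the other cDC1s. *Birc5* and *Ube2c* were also above them in 3 of 3 libraries, so the small group did not hold all of the excess. The members summed to 11664, 11713 and 10207 CPM in WT, sGSN-/- and sGSN-/-Clec9a-/- in this group, between 17587, 18358 and 15771 CPM in cluster 5 outside it and 5854, 6048 and 5646 CPM in other cDC1s. The order was the same in 3 of 3 libraries. The group was noticed after clustering and was not tested. The assignment to cluster 5 rests in part on the members, so the order of its 2 parts was partly set by selection. No conclusion is drawn from it. *Creld2* was the member that separated the 2 parts most (log2 ratio -1.57).

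Among the remaining clusters, activated cells (clusters 7 to 10) were set against resting cells (clusters 0, 2, 3 and 6). Of 32 members, 12 were higher and 2 lower, where 17.3% and 11.2% of the 10228 genes tested were, with a median log2 fold change of 0.14, and library size alone gave 7 and 3. *Herpud1* stood at 268, 293 and 261 CPM in activated cells of WT, sGSN-/- and sGSN-/-Clec9a-/-, against 124, 134 and 125 CPM, a log2 fold change of 1.17 without overlap. Smaller differences called with any library left out were *Creld2* at 0.72, *Sel1l* at 0.59, *Edem1* at 0.57, *Manf* at 0.43, *Hspa5* at 0.41 and *Pdia6* at 0.30. The activated clusters did not all move alike. The resting means were 30.5 CPM for *Creld2*, 162 for *Manf*, 789 for *Hspa5* and 214 for *Pdia6*. Cluster 8 was below them, at 26.8, 135, 631 and 143 CPM. Cluster 9 was above them, at 68.4, 247, 1552 and 278 CPM. *Sel1l* was at 18.4 CPM in cluster 7, below its resting mean of 22.2 CPM. *Herpud1* thus had the largest difference, although its mean was only 149 CPM in cluster 7, and 3 of 6 degradation members, *Syvn1*, *Derl1* and *Derl2*, were not called.

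The other calls in activated cells were lost on leaving out at least 1 library, and those of *Sec61b*, *Ddit3*, *Sdf2l1* and *Dnajb11* on leaving out any. Without WT those lost were *Sdf2l1* (0.33), *Hyou1* (0.27), *Ddit3* (0.23), *Sec61b* (0.22), *Dnajb11* (0.16), *Sec11c* (-0.22) and *Atf6* (-0.34). Without sGSN-/- they were *Sdf2l1* (0.40), *Ddit3* (0.34), *Dnajb11* (0.24), *Sec61b* (0.22), *Sec11c* (-0.21) and *Atf6* (-0.25). Without sGSN-/-Clec9a-/- they were *Hyou1* (0.28), *Ddit3* (0.26), *Sec61b* (0.19), *Dnajb11* (0.16) and *Sdf2l1* (0.10), while *P4hb* was gained (-0.24).

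Early cells (clusters 4 and 1) set against the same resting cells gave 15 of 32 members higher and 4 lower, where 20.3% of all genes were higher and 20.3% lower, with a median log2 fold change of 0.18. *Creld2* stood at 54.6, 53.8 and 51.5 CPM in early cells of WT, sGSN-/- and sGSN-/-Clec9a-/-, against 30.2, 32.7 and 28.5 CPM, and *Manf* at 266, 252 and 270 CPM against 149, 175 and 161 CPM. Both were high in every library, at log2 fold changes of 0.81 and 0.70. *Pdia6* had 0.72, and the entry members *Ssr2*, *Spcs2*, *Ostc*, *Sec61b* and *Sec11c* had 0.54, 0.49, 0.45, 0.45 and 0.42. *Atf6* was lower, at 48.9, 47.2 and 48.8 CPM against 87.2, 84.7 and 74.3 CPM (log2 fold change -0.77), and *Dnajb9* was lower by -0.58. *Hspa5* differed by 0.12 and was called only with the library as block (0.12).

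Some calls in early cells were also lost with 2 libraries. Without WT those lost were *Pdia4* (0.36), *Hyou1* (0.33), *Pdia3* (0.20), *Derl1* (-0.18) and *Syvn1* (-0.38). Without sGSN-/- they were *Calr* (0.36), *Pdia3* (0.26), *Derl1* (-0.22) and *Syvn1* (-0.32), and without sGSN-/-Clec9a-/- they were *Hyou1* (0.34), *Pdia4* (0.25) and *Derl1* (-0.21), while *P4hb* was gained (-0.22). *Sdf2l1* (0.56), *Dnajb11* (0.48) and *Herpud1* (0.48) were higher with any library left out, so what remained was a partial set from several roles, beside the nearly complete set of cluster 5.

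Between genotypes few members passed 1.5-fold, at or below the share of all genes. With 1 library each there was no replicate and no test, and intervals cover counting error only. *Hspa5* stood at 1012, 1100.1 and 934 CPM in all cDC1s of WT, sGSN-/- and sGSN-/-Clec9a-/-, ratios of 1.09 (1.07 to 1.10) and 0.922 (0.906 to 0.939) to WT. In all cDC1s, 1 of 33 members differed 1.5-fold or more in sGSN-/-, where 3.85% of genes did, and 0 in sGSN-/-Clec9a-/-, where 4.07% did. The one was *Trib3*, at 1.61 (0.829 to 3.14). Within cluster 5 the counts were 0 in sGSN-/-, where 21.1% of genes differed so, and 1 in sGSN-/-Clec9a-/-, where 23.9% did, namely *Ern1* at 0.649 (0.260 to 1.49). The median ratios of the members in all cDC1s were 1.04 and 0.978, beside 0.995 and 0.949 over all genes. In sGSN-/-, 25 of 33 ratios were above 1 and 19 intervals left out 1, and in sGSN-/-Clec9a-/- 11 ratios were above 1 and 10 intervals left out 1. These counts were not set against all genes. Intervals of well-counted members left out 1 at small differences, as that of *Hspa5* did at 1.09. The higher levels of cluster 5 were present in each genotype.

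Barcodes outside the cDC1 table were grouped by marker genes into classes that serve as a scale for the members. The deposited cDC1s they were set against included cluster 5, which raised the level of the members. In WT, *Sdf2l1* stood at 227 CPM with that cluster and 169 CPM without it, and *Creld2* at 60.8 and 38.7 CPM. Against the deposited cDC1s, NK-like cells had 2 of 32 members higher and 27 lower, where 35.2% and 35.3% of the 12490 genes tested were, median log2 fold change -0.52, and library size alone gave 4 and 19. T-like cells had 2 higher and 27 lower, where 23.8% and 25.7% were, median -0.61, and library size alone gave 2 and 19. Activated cDC-like cells had 3 higher and 24 lower, where 23.1% and 19.3% were, median -0.76, and library size alone gave 4 and 24. Most folding genes thus stood lower in lymphocytes and activated cDCs than in tumour cDC1s with cluster 5 included. No fit left that cluster out.

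The myeloid classes followed. Cells like cDC2s had 3 of 32 members higher and 19 lower, where 27.8% and 27.3% of all genes were, median -0.31, and 3 and 19 by library size alone. Cells like monocytes or macrophages had 4 higher and 18 lower, where 30.4% and 30.0% were, median -0.24, and 6 and 15 by library size alone. Plasmacytoid-like cells had 9 higher and 8 lower, where 22.4% and 24.5% were, median -0.06, 17 and 3 by library size alone, and 2 and 21 when the classes were drawn at a resolution of 0.5, so their direction turned with the scaling and with the naming of cells. Cells with cDC1 markers outside the table had 0 higher and 14 lower, where 21.2% of all genes were lower, median -0.21, with 0 and 22 at an unadjusted p under 0.05 in edgeR, 0 and 15 by DESeq2, 0 and 7 by library size alone, and 0 and 21 with the library as block. Proliferating cells were among those the authors had excluded, and this class joined 1264 barcodes of which 46.0% had *Mki67* with 878 barcodes at a median of 2723 UMIs. The deposited cDC1s it was set against included cluster 5. In WT, *Hspa5* stood at 1012 CPM with that cluster and 847 CPM without it. The part of cluster 5 in these counts was not tested. Library size alone moved the median of all genes by 0.28 for NK-like, 0.32 for T-like, 0.17 for cDC1-like and 0.32 for plasmacytoid-like cells.

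Against that background, the sensor *Ern1* was higher in several of the classes outside cDC1s. It stood at 51.8, 53.3 and 44.0 CPM in NK-like cells of WT, sGSN-/- and sGSN-/-Clec9a-/-, against 7.22, 7.72 and 6.47 CPM in cDC1s, a log2 fold change of 2.53 without overlap, and was higher by 1.04 in monocyte-like, 0.98 in T-like, 0.96 in plasmacytoid-like and 0.66 in cDC2-like cells. *Xbp1* ran the other way in NK-like cells, at 97.3, 83.3 and 84.1 CPM against 147, 141 and 129.6 CPM, and was high in plasmacytoid-like cells at 432, 349.9 and 329 CPM. *Edem1* was higher by 1.07 in activated cDC-like, 1.03 in cDC2-like, 0.88 in monocyte-like and 0.72 in plasmacytoid-like cells. *Ern1* and *Xbp1* thus differed in opposite directions between NK-like cells and cDC1s.

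Several weaker calls in these classes were lost with 1 library. Without WT they included *Spcs2* in NK-like (-0.25), *Pdia4* (-0.31), *Spcs2* (-0.28) and *Sec11c* (-0.22) in T-like, *Herpud1* in activated cDC-like (0.22) and plasmacytoid-like (0.27), *Manf* in plasmacytoid-like (0.13), *Sel1l* in cDC2-like (0.16), *Atf6* in cDC1-like (-0.27), and *Sel1l* (0.25), *P4hb* (0.23) and *Xbp1* (-0.23) in monocyte-like cells. Without sGSN-/- they included *Dnajb11* (-0.18), *Ostc* (-0.11), *Canx* (-0.10) and *Spcs2* (-0.02) in NK-like, *Ssr2* (-0.38), *Ostc* (-0.26), *Derl2* (-0.23), *Pdia4* (-0.17), *Sec11c* (-0.13) and *Spcs2* (-0.12) in T-like, and *Pdia4* in activated cDC-like cells (-0.42). In cDC1-like cells they were then *Sel1l* (-0.34), *Sec11c* (-0.32), *Manf* (-0.29), *Atf6* (-0.27), *Sec61b* (-0.26) and *Ostc* (-0.24), and in cDC2-like cells *Manf* (-0.29), *Calr* (-0.26), *P4hb* (-0.19) and *Sel1l* (0.22).

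In monocyte-like cells the calls lost without sGSN-/- were *Ddit3* (-0.31), *Xbp1* (-0.22), *Ostc* (-0.18), *P4hb* (0.20) and *Sel1l* (0.22), and in plasmacytoid-like cells *Derl2* (-0.11) and *Ostc* (-0.07). Without sGSN-/-Clec9a-/- they were *Spcs2* (-0.18) and *Canx* (-0.17) in NK-like, *Herpud1* in activated cDC-like (0.28), *Sec61b* in cDC1-like (-0.27), *Ostc* (-0.21) and *P4hb* (0.18) in monocyte-like, and *Derl2* (-0.28), *Ostc* (-0.21), *Manf* (0.28) and *Herpud1* (0.32) in plasmacytoid-like cells.

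The promoters of the members were searched for the sequences that the sensors' transcription factors recognise, on both strands, from 250 bases before to 50 after each start in the RefSeq promoters of GRCm38.p6. The ER stress response element, CCAAT followed by 9 bases and CCACG and bound by ATF6 with NF-Y, was found in 8 of 26 members with a promoter (30.8%), beside 39 of 32851 promoters (0.119%). The 8 were *Hspa5*, *Hsp90b1*, *Dnajc3*, *Creld2*, *Pdia6*, *Calr*, *Canx* and *Syvn1*. The 39 promoters included those of the members, which were chosen for their known function. Both shares are thus a description and no test. The site TGACGTGG was found in 0 of 26 members and in 222 promoters (0.676%), and TGATGCAA, a composite site of CHOP and ATF4, in *Herpud1* alone and in 294 promoters (0.895%). *Ssr2*, *Ostc*, *Manf*, *Sec11c*, *Hyou1*, *Atf6* and *Derl1* had no entry. Of the other genes with the element, 6 were tested in cluster 5 and 3 were higher, *Derl3*, *Alg12* and *Hnrnpa3*, where 11.8% of all genes were. Of other genes with TGACGTGG 33 of 93 tested were higher and 6 lower, and with TGATGCAA 17 of 62 were higher and 10 lower. A match describes the sequence and not its use.

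The matches of 4 members are given because they had the largest log2 fold changes in cluster 5 of the 8 with the element. Capitals mark the outer bases of the element, in either orientation. *Creld2* is at chr15:88819500-88819558 on the plus strand, *Pdia6* at chr12:17266471-17266529 on the plus strand, *Hsp90b1* at chr10:86705513-86705676 on the minus strand with 2 matches, and *Hspa5* at chr2:34772005-34772063 on the plus strand, all in GRCm38.p6.

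Creld2: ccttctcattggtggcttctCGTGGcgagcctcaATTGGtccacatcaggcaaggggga

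Pdia6: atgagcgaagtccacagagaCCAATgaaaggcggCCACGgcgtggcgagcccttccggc

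Hsp90b1: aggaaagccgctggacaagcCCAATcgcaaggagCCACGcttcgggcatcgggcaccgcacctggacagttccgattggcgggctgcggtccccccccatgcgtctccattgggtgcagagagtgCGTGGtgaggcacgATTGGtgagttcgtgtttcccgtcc

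Hspa5: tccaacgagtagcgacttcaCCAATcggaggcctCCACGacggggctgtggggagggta

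Each genotype was represented by 1 pool of mice, so no difference between genotypes could be tested and a difference between pools cannot be told apart from one between genotypes. The 3 libraries used as replicates for the clusters differ in genotype. Transcript counts give neither protein levels nor the activity of IRE1, PERK or ATF6. The deposited clusters were drawn on the counts that the members belong to. Tumour dissociation and sorting affect stress transcripts, and their part was not tested.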

How the data were processed

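The UMI counts per gene and barcode were made by the authors before deposit with Cell Ranger 6.0.1 on mm10 (GRCm38), per the file headers, and were not normalised. The cDC1 clusters are as deposited: per the submitters, Seurat 4.0.0 kept cells of at least 200 genes, integrated the libraries and dropped cells of high mitochondrial share and dying cells. T, NK, plasmacytoid and proliferating cells had also been excluded by the authors. The members and lists were chosen with earlier results of these data known.

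Raw counts were summed by library and cluster and fitted in edgeR 4.0.16 (TMM scaling, quasi-likelihood, Benjamini-Hochberg at 0.05) on R 4.3.3, with DESeq2 1.42.0 as a second tool. Clusters 0 to 10 were tested and cluster 11 was described. The 3 libraries served as replicates, 1 per genotype. Sums of 1 library come from the same pool of mice, and their residuals were correlated at 0.225, 0.199 and 0.218, so a fit with the library as block was also run. Where a symbol had more than 1 identifier the best covered was kept. Genes outside the module were named when they stood among the first 3 of a list or the 10 nearest to *Hspa5*, were called in the IRE1 list, were the only gene of a list called lower, carried the ER stress response element and were called, or were markers or leading genes of a group.

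Re-clustering used Python 3.11.15, scanpy 1.11.5 and leidenalg 0.10.2 at resolutions of 0.8, 0.5 and 1.2. Of 23052 other barcodes that passed the same limits, 9924 stayed unnamed. Their groups matched too few markers, matched another list nearly as well, were shallow or were mostly doublets. They included 679 barcodes that matched cDC1 and proliferation markers alike, 98.1% of them with *Mki67*. The naming rule was amended after the groups had been seen. Alternatives also left out the 6% of barcodes with the top Scrublet scores per library, or thinned cells to 3900 UMIs, which kept 5518 cDC1s and left out 288. A self-test of the fit was passed. No comparison made by the authors was used.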

Additional observations from a re-analysis of the deposited data

How the results depend on the processing

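All alternatives were chosen after the data had been seen. Of 319 repeats of the counts of members, 283 stayed within 1.5 times of the value given and 36 moved further. The cause of the moves below was not tested. For single members called in cluster 5 against each cluster, 2765 of 2829 repeats were the same and 64 weaker. Of the weaker ones, 17 came with thinned cells and 18 without the WT library. Of the genotype ratios, 47 stayed within the counting interval and 19 moved with equal weight per cluster, and 52 stayed and 14 moved with thinned cells.

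Members lower in cluster 5 than in cluster 6 became 1 without the filter on low counts and with only the 2 clusters in the fit, and 1 to 2 on leaving out a library. Members lower than in cluster 7 became 0 with library size alone, without the filter, with DESeq2, with thinned cells, with only the 2 clusters in the fit, and 0 on leaving out any library. Members lower than in cluster 8 became 0 with library size alone, without the filter, with thinned cells and with only the 2 clusters in the fit, and 0 to 1 on leaving out a library.

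In activated against resting cells, members higher became 7 with library size alone, 6 with thinned cells and 7 to 8 on leaving out a library, and members lower 0 to 3. In early against resting cells, members lower became 2 with thinned cells and 2 to 4 on leaving out a library. In the re-clustered group with most cluster 5 cells, members lower became 0 and members higher 23 at a resolution of 1.2, where that group is another one, of 137 cells with 125 from cluster 5.

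Members higher in NK-like cells became 4 with library size alone. For cDC1-like cells, members higher became 1 at a resolution of 0.5, and members lower 7 with library size alone and 8 to 14 on leaving out a library. Members higher in monocyte-like cells became 2 to 3 on leaving out a library. For plasmacytoid-like cells, members higher became 17 with library size alone and 2 at a resolution of 0.5, and members lower 3 and 21.

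With the library as block no call was lost, and calls were gained in several comparisons. *Atf6* was called in cluster 5 against all other cDC1s (log2 fold change 0.22, 3 of 3 libraries, adjusted p 0.0250), *Dnajb9* against cluster 3 (0.28, 3 of 3, 0.0223) and *Ddit3* against cluster 9 (0.43, 3 of 3, 0.0387), by the quasi-likelihood test of edgeR with Benjamini-Hochberg. Members higher and lower became 15 and 3 in activated cells, 17 and 6 in early cells, 20 and 2 in the re-clustered group, 2 and 28 in T-like, 0 and 21 in cDC1-like, 3 and 20 in cDC2-like, 6 and 21 in monocyte-like and 11 and 8 in plasmacytoid-like cells. The block changed no other call. No remapping of reads was run.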

Other observations

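Cluster 11, the 60 shallow cDC1s, was also rich in members. *Hspa5* stood there at 4187, 3538 and 3216 CPM in WT, sGSN-/- and sGSN-/-Clec9a-/-, above cluster 5 in every library, *Atf6* at 115, 153 and 376 CPM and *Herpud1* at 322, 370.4 and 239 CPM, below cluster 5 in every library. Its cells had a median mitochondrial share of 8.07%.

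Lists of other stress genes were also read in cluster 5 against clusters 8 and 9. Against cluster 9, 7 of 11 cytosolic heat shock genes tested were lower in cluster 5, at a median log2 fold change of -1.08, and 11 of 12 immediate early genes were lower, at -1.05, where 11.7% of all genes were lower. Against cluster 8, 3 of 11 heat shock genes were lower, at -0.06, and 8 of 12 immediate early genes were higher and 2 lower, at 0.53, where 23.0% of all genes were higher and 25.7% lower. The heat shock count against cluster 8 was thus near the share of all genes. These tests are by edgeR at an adjusted p under 0.05.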
